A study of Mus musculus with 8 samples.

Results

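The interferon-inducible GTPases described here are 8 genes, Gbp2, Gbp3, Gbp6, Igtp, Irgm1, Irgm2, Iigp1 and Ifi47, whose mRNA was compared between TgC6hp55 and WT mouse livers. They were chosen by name, with earlier results of these data known. Every array probe that the annotation assigns to one of these symbols was taken. This gave 13 of the 25697 probes on the array and 7 of its 16593 named genes. Gbp6 had no probe under that symbol and was not measured. Livers came from 4 TgC6hp55 and 4 WT male mice of the C57BL/6J strain, all 21 weeks old. The labels and the study's array methods name no treatment of these mice, and give neither their feeding state nor earlier procedures. Each liver was hybridised to 1 array of the Illumina Mouse Ref-8 v2.0 BeadChip type, and the sample labels do not give the chip of each array. TgC6hp55 mice carry the coding sequence of human TNF receptor 1 behind the mouse CollagenVI promoter, which is active in mesenchymal cells, together with a human growth hormone minigene. The line descends from a single founder, its insertion interrupts Icoslg and Dnmt3l, and by qPCR the study found mRNA of neither transgene in the liver. The receptor, the hormone and the interrupted genes cannot be told apart as sources of a difference in these livers. By the study's methods, mice were littermates or had shared cages since weaning, the labels do not say which livers belong together, and the p-values measure only the spread between these livers.

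Interferon-inducible GTPases defend cells against parasites and bacteria that live in membrane-bound vacuoles. After interferon gamma binds its receptor, the kinases JAK1 and JAK2 pass the signal on to factors that bind GAS sequences in DNA, and IRF1, itself induced by interferon gamma, binds ISRE sequences. Type I interferons also act through ISRE sequences. In mice the targets include guanylate-binding proteins (the Gbp genes) and immunity-related GTPases. Among the immunity-related GTPases, Irgm1, Irgm2 and Igtp (also called Irgm3) encode regulators that sit on the cell's own membranes and keep effectors such as Iigp1 and Ifi47 inactive there, and the effectors and guanylate-binding proteins coat and break vacuoles that lack these regulators. In the liver such genes are induced in hepatocytes as well as in Kupffer cells, the resident macrophages.

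Of the 6 genes with a detected probe, 4 were higher in TgC6hp55 livers, namely Gbp3 (3.79-fold), Igtp (2.83-fold), Gbp2 (2.39-fold) and Irgm2 (1.7-fold), and 0 were lower. Irgm1 and Ifi47 did not pass the test, with log2 fold changes of -0.30 and -0.36. A gene was called at an adjusted p under 0.05 in limma, with Benjamini-Hochberg adjustment over 8540 features, and 6.48% of these features were called higher and 4.51% lower, 11.0% in all. Of the 6 genes, 4 had a positive change, as had 48.4% of all features. The 4 genes called also had every TgC6hp55 liver above every WT liver, as had 9.20% of all features. The median log2 fold change was 1.01 over the 6 genes, against -0.0080 over all features. At an unadjusted p under 0.05 the count was 5 of 6 (4 higher and Irgm1 lower), against 24.4% of all features. Since members and the gene lists below were chosen with earlier results known, counts set beside these shares are descriptions, not tests. Under all 19 alternative settings, SAM among them, the count of lower members stayed at 0. The count of higher members was 3 under median scaling and under SAM, where Irgm2 was lost, and 4 in the others. Iigp1 did not pass the detection filter. Of 11 tested macrophage markers, 5 were called higher too, with values given after the gene lists, and in whole tissue more cells of a type and more RNA per cell cannot be told apart.

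Values are log2 signals after background correction and quantile normalization, unless they are called deposited intensities. On the log2 scale a difference of 1 is a doubling for a bright probe, and changes of dim probes are understated. Mean deposited intensity per array ran from 112.4 (replicate 4) to 223.5 (replicate 3) in TgC6hp55 livers and from 166.7 to 178.9 in WT livers, so levels were compared after normalization. A probe counted as detected on an array at a detection p under 0.05. Across genes, arrays correlated at 0.982 to 0.992 within the TgC6hp55 group, 0.986 to 0.992 within the WT group and 0.957 to 0.970 between the groups. The hepatocyte markers that were tested, 8 of 10 listed, summed to signals of 55270 to 62510 in TgC6hp55 livers and 54560 to 57490 in WT livers. The brightest of them carry these sums, all 8 changes were positive, and 1 was called, Ttpa, a vitamin E transfer protein (log2 fold change 0.75, limma adjusted p = 0.00136). Trf read 13.91 in all 4 WT livers after quantile normalization, from deposited intensities of 15370 to 16979. The Alb probe was dim, with deposited intensities of 17 to 66 over the 8 livers. These sums are therefore not read as hepatocyte content. Precision is set by the number of livers.

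Gbp2 and Gbp3 encode guanylate-binding proteins, large GTPases that assemble on pathogen vacuoles. Their genes lie close together on chromosome 3, in a cluster with Gbp5, Gbp7 and Gbp2b. To show the DNA that interferon-activated factors could meet, the 120 bases before each gene start are printed here and below from RefSeq (GRCm38.p6), 5′ to 3′ on the strand of the gene. Capitals mark the letters GAAA-NN-GAAA (N is any base, hyphens only for reading) on either strand, a core of the ISRE, and TTCNNNGAA, the core of the GAS. Gbp2 is read from chr3:142620543-142620662 on the + strand and Gbp3 from chr3:142559924-142560043 on the + strand.
Gbp2: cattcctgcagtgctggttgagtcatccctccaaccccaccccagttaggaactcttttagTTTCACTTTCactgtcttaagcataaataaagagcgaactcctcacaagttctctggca
Gbp3: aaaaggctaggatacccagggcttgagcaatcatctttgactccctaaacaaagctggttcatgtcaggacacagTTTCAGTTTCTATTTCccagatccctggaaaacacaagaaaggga

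Both stretches hold the ISRE core in its reverse reading, at positions -59 to -50 in Gbp2 and at -45 to -36 and -39 to -30 in Gbp3, where the pair overlaps. RefSeq gives Gbp3 another start too, whose promoter holds no match.

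Gbp2 was measured by 1 detected probe (ILMN_3122961). Its log2 signal was 6.98, 7.55, 7.43 and 7.26 in TgC6hp55 replicates 1 to 4, and 5.96, 6.12, 6.06 and 6.06 in WT replicates 1 to 4. The WT livers lay within a narrow band and all TgC6hp55 livers stood above it. The means were 7.31 ± 0.25 in TgC6hp55 livers and 6.05 ± 0.068 in WT livers (SD, n = 4 each), and the log2 fold change was 1.26 (SE 0.13, 95% interval 0.98 to 1.53, limma adjusted p = 4.49e-05). The other Gbp2 probes, ILMN_2605602 and ILMN_3047389, were detected on 0 of 8 arrays, with deposited intensities between -7 and 6, and give no check of this value.

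Gbp3 showed the largest change of the 6 genes and also the widest spread. The brighter of its probes (ILMN_1244513) read 7.74, 8.66, 8.10 and 7.29 in TgC6hp55 livers, and 5.86, 5.85, 6.50 and 5.88 in WT livers. TgC6hp55 replicate 2 was highest and replicate 4 lowest in its group, WT replicate 3 stood above the other WT livers, and the groups did not overlap. The log2 fold change was 1.92 (SE 0.25, 95% interval 1.37 to 2.48, limma adjusted p = 4.52e-04), from means of 7.95 ± 0.58 in TgC6hp55 livers and 6.02 ± 0.32 in WT livers. Without WT replicate 3 it was 2.08, and without TgC6hp55 replicate 4 it was 2.16. The second probe (ILMN_2918002) read 7.11, 8.21, 7.34 and 6.22 in TgC6hp55 livers, against 5.16, 5.33, 5.45 and 5.09 in WT livers. It ranked the TgC6hp55 livers in the same order, and in a fit of all probes one by one, where 5.95% were called higher and 4.45% lower, its log2 fold change was 1.97 (SE 0.31, limma adjusted p = 0.00137). The changes given by the 2 probes differed by 0.041 on the log2 scale (two-sided exact permutation test, p = 0.771).

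**Figure D1:**
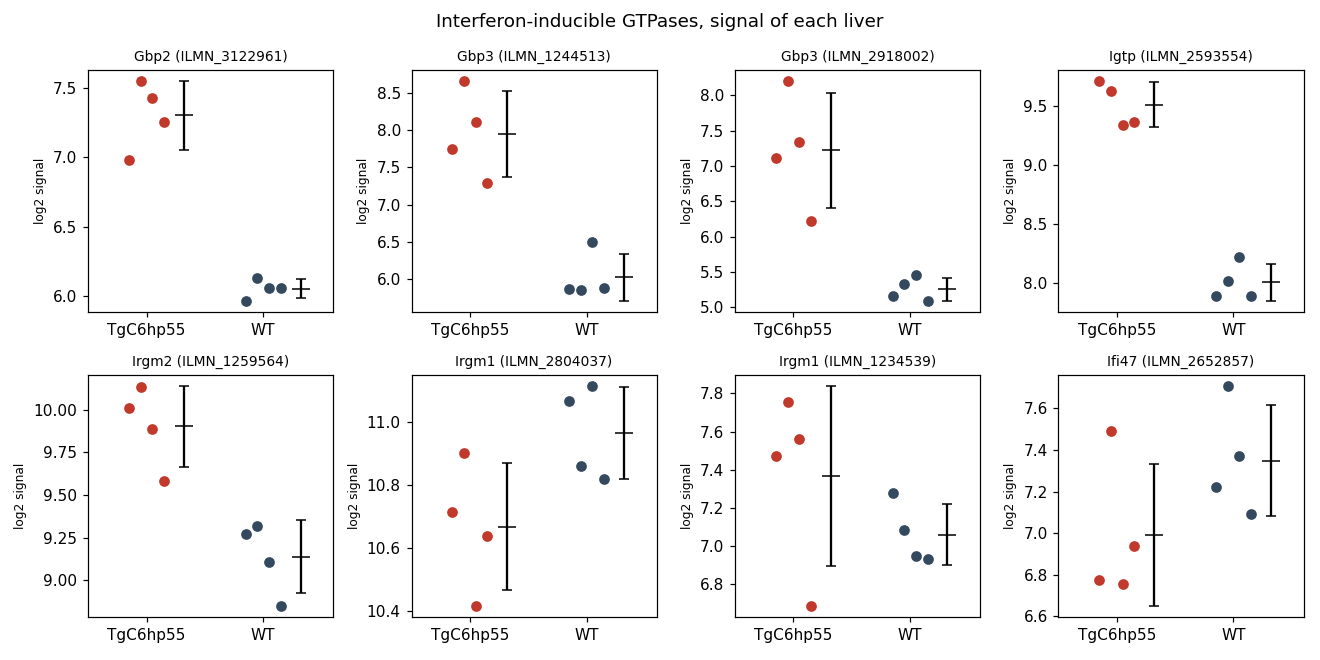
Log2 signal (y axis) of each detected probe of the interferon-inducible GTPases in 4 TgC6hp55 livers (red) and 4 WT livers (dark blue), replicates 1 to 4 from left to right, with a horizontal tick at the mean and bars of 1 SD. The groups are apart for Gbp2, both Gbp3 probes, Igtp and Irgm2, and overlap for both Irgm1 probes and Ifi47. The y axes differ between panels and do not start at 0.

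Igtp, Irgm2 and Irgm1 encode the regulators among the immunity-related GTPases. Igtp and Irgm2 are direct neighbours on chromosome 11, and Irgm1 lies elsewhere on the same chromosome. Igtp is read from chr11:58199436-58199555 on the + strand, Irgm2 from chr11:58214857-58214976 on the + strand and Irgm1 from chr11:48871421-48871540 on the - strand, with capitals as above.
Igtp: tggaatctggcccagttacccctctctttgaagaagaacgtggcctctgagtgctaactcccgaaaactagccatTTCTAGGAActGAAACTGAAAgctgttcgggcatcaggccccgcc
Irgm2: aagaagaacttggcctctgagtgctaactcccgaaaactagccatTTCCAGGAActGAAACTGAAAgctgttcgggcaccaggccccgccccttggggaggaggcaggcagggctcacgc
Irgm1: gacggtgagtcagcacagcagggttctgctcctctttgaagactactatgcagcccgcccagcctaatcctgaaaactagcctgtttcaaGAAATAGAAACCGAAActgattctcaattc

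Igtp and Irgm2 carry the GAS core just before the ISRE core, at -45 to -37 and -34 to -25 in Igtp and at -75 to -67 and -64 to -55 in Irgm2. The longest run of letters that their promoters share is 61 bases, while every other pair of members shared runs of 7 to 11 bases. Irgm1 holds the ISRE core at -30 to -21 and, overlapping it, at -24 to -15, and no TTCNNNGAA in the window.

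Igtp, whose product protects host membranes from the effector GTPases, rose with little spread. Its probe (ILMN_2593554) read 9.71, 9.63, 9.34 and 9.36 in TgC6hp55 livers, and 7.89, 8.02, 8.22 and 7.89 in WT livers. All TgC6hp55 livers lay more than a doubling above the highest WT liver. The means were 9.51 ± 0.19 in TgC6hp55 livers and 8.01 ± 0.16 in WT livers, and the log2 fold change was 1.50 (SE 0.12, 95% interval 1.24 to 1.77, limma adjusted p = 7.18e-06).

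Irgm2 rose less. Its probe (ILMN_1259564) read 10.01, 10.14, 9.88 and 9.58 in TgC6hp55 livers, and 9.27, 9.32, 9.11 and 8.85 in WT livers. Replicate 4 was the lowest liver in both groups, and the groups did not overlap after normalization, whereas deposited intensities of 892, 1102, 1256 and 477 in TgC6hp55 livers and 618, 647, 558 and 437 in WT livers did. The log2 fold change was 0.77 (SE 0.14, 95% interval 0.45 to 1.08, limma adjusted p = 0.00503), from means of 9.90 ± 0.24 in TgC6hp55 livers and 9.14 ± 0.21 in WT livers. With median scaling between arrays in place of quantile normalization it was 0.64 and did not pass (adjusted p = 0.238).

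Irgm1, the remaining regulator, is also tied to autophagy and to resistance against mycobacteria in mice. Its brighter probe (ILMN_2804037) read 10.71, 10.90, 10.41 and 10.64 in TgC6hp55 livers, and 11.07, 10.86, 11.11 and 10.82 in WT livers. TgC6hp55 replicate 2 lay among the WT livers and the other TgC6hp55 livers below all of them. The log2 fold change was -0.30 (SE 0.12, 95% interval -0.57 to -0.028), with an unadjusted p of 0.0332 and a limma adjusted p of 0.158. A second probe (ILMN_1234539) read 7.47, 7.76, 7.56 and 6.68 in TgC6hp55 livers, and 7.28, 7.08, 6.95 and 6.93 in WT livers. It pointed the other way, with replicate 4 alone below the WT range, and its log2 fold change was 0.31 (95% interval -0.12 to 0.74, adjusted p = 0.387 in the limma fit of all probes). The changes from the 2 Irgm1 probes differed by 0.60 on the log2 scale (two-sided exact permutation test, p = 0.114), and a further probe (ILMN_2711172) was not detected on any array, so the direction of Irgm1 is not settled by this array.

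Ifi47 and Iigp1 encode effector GTPases, which load onto vacuoles. Ifi47 lies on chromosome 11 beside Tgtp2, another effector gene. Its stretch, shown because it lacks the letters found in the other members, is read from chr11:49076467-49076586 on the + strand.
Ifi47: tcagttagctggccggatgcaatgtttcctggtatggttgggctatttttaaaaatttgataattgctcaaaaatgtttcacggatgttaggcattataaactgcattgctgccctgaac

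The 300 bases around this start, 250 before and 50 after it, hold neither GAAA-NN-GAAA nor TTCNNNGAA, which says only that these letters are not in the window. The Ifi47 probe (ILMN_2652857) read 6.78, 7.49, 6.76 and 6.94 in TgC6hp55 livers, and 7.22, 7.71, 7.37 and 7.09 in WT livers. Replicate 2 was highest in both groups, and TgC6hp55 replicates 1, 3 and 4 lay below every WT liver. The log2 fold change was -0.36 (SE 0.18, 95% interval -0.75 to 0.032, limma adjusted p = 0.247), from means of 6.99 ± 0.34 in TgC6hp55 livers and 7.35 ± 0.27 in WT livers. The interval leaves out a doubling in either direction.

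Iigp1, one of the best studied effectors, was at the edge of detection. The brighter of its probes (ILMN_2612776) had deposited intensities of 7, 5, 8 and 5 in TgC6hp55 livers and 7, 7, 5 and 4 in WT livers, and was detected on 1 TgC6hp55 and 1 WT array. The other probe (ILMN_1229996) ran from -6 to 1 in TgC6hp55 livers and from -4 to 3 in WT livers and was detected on 0 arrays. A change in Iigp1 was not detectable at these signals, which does not show that its mRNA was absent.

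**Figure D2:**
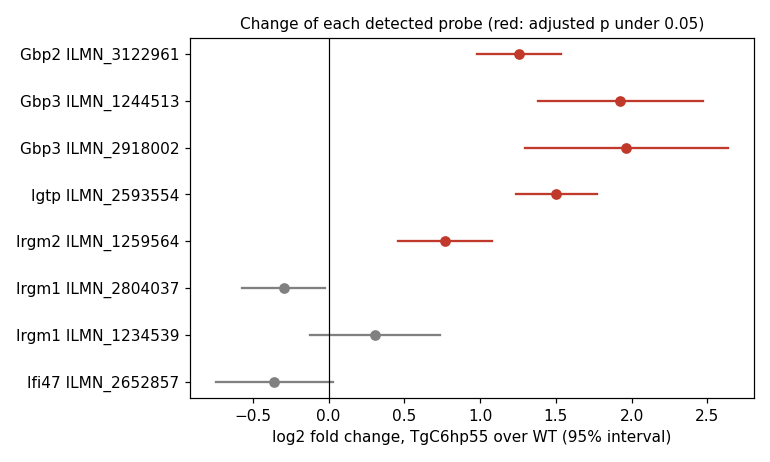
Log2 fold change, TgC6hp55 over WT (x axis), of each detected probe of the interferon-inducible GTPases in the limma fit of all probes, with 95% intervals. Red points passed an adjusted p under 0.05: Gbp2, both Gbp3 probes, Igtp and Irgm2. The intervals of the second Irgm1 probe and of Ifi47 cross 0, and that of the brighter Irgm1 probe lies just below it.

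The log2 changes of the members' probes were set beside each other within the 8 livers, as a description of probes. For each pair of the 6 genes, and for the second probes of Gbp3 and Irgm1 against the brighter ones, the difference between log2 signals was compared between groups by a two-sided exact permutation test, 17 comparisons in all. With 4 livers against 4 the smallest p that 70 arrangements allow is 0.0286, and 10 pairs reached it (Benjamini-Hochberg adjusted p = 0.0486). All of these but Gbp3 with Irgm2 and Igtp with Irgm2 set a member called higher beside Irgm1 or Ifi47, and restate the calls from the same values. Among the 10 pairs, the log2 change of Igtp exceeded that of the brighter Irgm1 probe by 1.80, that of its neighbour Irgm2 by 0.74 and that of Ifi47 by 1.86. The change of Gbp3 exceeded that of Irgm2 by 1.16. The change of the brighter Irgm1 probe minus that of Irgm2 was -1.06. Since the Irgm1 probes disagree, the comparisons were repeated with the second Irgm1 probe, a choice made after seeing the data. Against it, Igtp exceeded Irgm1 by 1.20 and Irgm2 exceeded it by 0.46 (two-sided exact permutation test, p = 0.0286 each, adjusted p = 0.0357 over 5 comparisons), and Ifi47 minus Irgm1 was -0.66 (p = 0.0857). The changes of the 2 Irgm1 probes themselves differed by 0.60, so a difference between probes is not read as one between genes. Gbp2 and Gbp3 (difference -0.67, p = 0.0571), Gbp2 and Igtp (-0.25, p = 0.286) and Irgm1 and Ifi47 (0.060, p = 0.743) did not reach the threshold by this exact test, which does not show that they change alike. TgC6hp55 replicate 2 was the highest liver of its group on 7 of the 8 detected probes, all but that of Igtp.

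Of all 32851 RefSeq promoters of 300 bases, 3.44% hold GAAA-NN-GAAA on either strand and 8.30% hold TTCNNNGAA. In the 120 bases before the start the shares are 1.22% and 3.15%. Counted by gene, with a match in any promoter of the gene, 1079 of 27025 genes hold the first motif and 2582 the second. By that count, of the 6 members with a promoter entry, 5 hold the first motif and 2 the second. Gbp2, Gbp3, Igtp and Irgm2, which rose, hold the first motif. Of the members that did not pass, Irgm1, whose direction is not settled, holds it and Ifi47 does not. A relation between the motif and the change was not tested. Among the lists described next, genes with a promoter entry that hold the first motif were 8 of 11 other interferon-inducible GTPases, 13 of 21 type I interferon response genes, 4 of 18 other interferon gamma targets, 3 of 16 interferon gamma signalling genes and 1 of 13 autophagy genes. A match describes letters in a window, and no binding was measured.

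**Figure D3:**
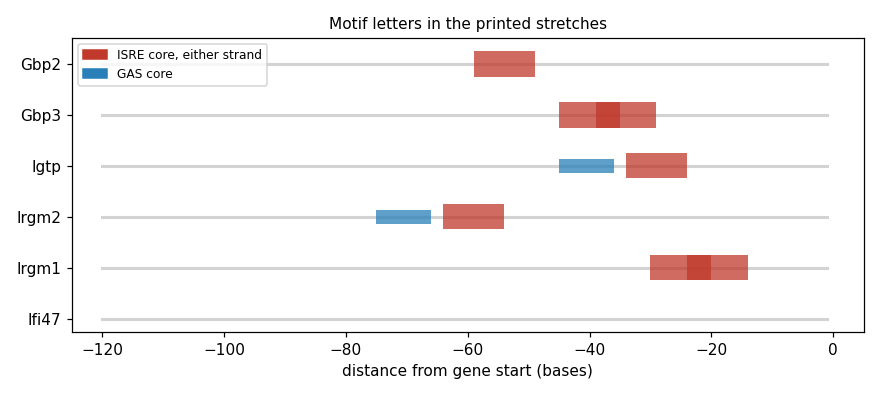
Positions of the motif letters in the 120 bases before each gene start (x axis, distance from the start in bases) for the 6 members with a promoter entry. Red blocks are GAAA-NN-GAAA on either strand, darker where matches overlap, and narrow blue blocks are TTCNNNGAA. Igtp and Irgm2 have both in the same order, and Ifi47 has neither.

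Other genes of the same families were counted in the same way. The list held 29 further interferon-inducible GTPases, of which 18 were on the array and 8 passed the detection filter, with a median log2 fold change of 0.023. Of these 8, 2 rose, 1 fell and 5 did not pass. Over all features, 6.48% were called higher and 4.51% lower. Gbp7, which neighbours Gbp3, read 5.86, 6.29, 5.24 and 5.66 in TgC6hp55 livers, and 4.87, 5.02, 5.39 and 4.95 in WT livers, and rose by 0.70 on the log2 scale (SE 0.20, limma adjusted p = 0.0407) although the groups overlapped at WT replicate 3. Gbp10 rose by 0.37 (SE 0.11, limma adjusted p = 0.0454), close to its detection limit and detected on 3 of the 4 WT arrays. Gvin1, a very large interferon-inducible GTPase, read 5.48, 5.81, 5.88 and 5.49 in TgC6hp55 livers, and 6.27, 6.65, 6.34 and 5.97 in WT livers. Every TgC6hp55 liver was below every WT liver, as for 7.55% of all features, and the log2 fold change was -0.64 (SE 0.15, limma adjusted p = 0.0189). The call of Gbp7 was lost on leaving out any of 6 livers (limma adjusted p up to 0.106), all but TgC6hp55 replicate 3 and WT replicate 3. The call of Gbp10 was lost without any of 7 (up to 0.134), all but TgC6hp55 replicate 1. That of Gvin1 was lost without TgC6hp55 replicate 1 or WT replicate 2 (up to 0.0586). Gbp4, Gbp5, Gbp9 and Mx1 were detected on 0 arrays.

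Upstream of these GTPases, 1 signalling gene of interferon gamma passed the test at the mRNA level. Of 19 listed, 18 were on the array and 13 were tested, with 0 higher, 1 lower and a median log2 fold change of 0.14, while an unadjusted limma p under 0.05 was met by 2 genes upward and 1 downward. Among all features 4.51% were called lower, and 24.4% met the unadjusted threshold in either direction. The 1 call is not read as a result about this list. Ifng, the ligand itself, had 2 probes, detected on 0 arrays. The receptor genes Ifngr1 and Ifngr2 had log2 fold changes of 0.39 (limma adjusted p = 0.0815) and 0.42 (0.283), and the kinases Jak1 and Jak2 of -0.11 (0.564) and 0.10 (0.660). Irf1, the transcription factor that binds ISRE sequences, read 9.68, 9.71, 9.79 and 9.67 in TgC6hp55 livers, and 9.64, 9.33, 9.06 and 9.54 in WT livers. The TgC6hp55 livers lay just above the WT livers, which were more spread out, and the change of 0.32 did not pass (limma adjusted p = 0.141). Irf8, a myeloid member of that family, had a change of 0.20 (limma adjusted p = 0.544). The gene that fell was Irf2, a competitor of IRF1 for the same sequences, by 0.43 on the log2 scale (SE 0.12, limma adjusted p = 0.0459). Its call was lost without any of 6 livers (limma adjusted p up to 0.123), all but TgC6hp55 replicate 3 and WT replicate 3.

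Other known targets of interferon gamma were called in 10 of 22 tested genes, all higher, with the chemokines Cxcl9, Cxcl10 and Ccl5 among them. The list held 28 genes, the median log2 fold change was 0.42, and at an unadjusted p under 0.05 in limma 14 were higher and 0 lower. For comparison, 6.48% of all features were called higher, and 24.4% met the unadjusted threshold in either direction. The T cell attracting chemokine Cxcl9 read 8.50, 8.58, 8.64 and 8.71 in TgC6hp55 livers, and 7.40, 7.31, 7.52 and 7.40 in WT livers. Neither group spread by more than a fraction of the gap, and the log2 fold change was 1.20 (SE 0.095, limma adjusted p = 5.85e-06). Cd274, which encodes the checkpoint ligand PD-L1, rose by 1.08 (SE 0.12, adjusted p = 1.06e-04), the chemokine Ccl5 by 0.84 (SE 0.13, adjusted p = 0.00184) and Cd74, the invariant chain of MHC class II, by 0.83 (SE 0.21, adjusted p = 0.0256). The call of Cd74 was lost without any of 4 livers, TgC6hp55 replicates 1, 2 and 3 and WT replicate 2 (limma adjusted p up to 0.0745). The other calls were Cxcl10, Casp1, Icam1, Tap1, Psmb8 and Psmb10, the last 2 being subunits of the immunoproteasome. Those of Tap1, Psmb8 and Icam1 were lost without any of 7, 5 and 3 livers (limma adjusted p up to 0.105, 0.109 and 0.0723), and those of Tap1 and Psmb8 also with the replicate number as a block. Among targets that did not pass, B2m had a change of 0.037 and Psme2 of -0.084.

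Genes of the type I interferon response, many of which interferon gamma also induces, gave 10 higher and 0 lower of 19 tested (25 listed), with a median log2 fold change of 0.60 and, at an unadjusted p under 0.05 in limma, 13 higher and 0 lower. The shares over all features were 6.48% called higher and, at the unadjusted threshold, 24.4% in either direction. Ifit3, of the antiviral IFIT family, read 9.05, 9.84, 9.13 and 9.09 in TgC6hp55 livers, and 7.43, 8.04, 8.60 and 7.93 in WT livers. It rose by 1.28 (SE 0.23, limma adjusted p = 0.00470), while 1 of its other probes gave 0.82 (adjusted p = 0.0137) and the remaining one 0.48 (adjusted p = 0.258) in the limma fit of all probes. Of the oligoadenylate synthetase family, which senses RNA, 3 of 4 tested genes passed, with Oas1g at 0.96 (limma adjusted p = 0.00595), Oas2 at 0.94 (7.48e-04) and Oasl2 at 0.94 (0.00347). Oasl1 had a change of -0.069 (limma adjusted p = 0.812), and Oas1a and Oas3 were detected on 0 arrays. A second Oas1g probe gave 0.41 and did not pass (adjusted p = 0.132). Immunity-related GTPases and guanylate-binding proteins are guided to vacuoles by the machinery that conjugates LC3 proteins in autophagy and by ubiquitin-like proteins. Of 17 genes listed for these, 16 were tested, with 0 higher, 1 lower and a median of 0.12 (by an unadjusted limma p under 0.05, 2 upward and 2 downward). That 1 call is near the 4.51% of all features called lower and is not read as a result about this list. Map1lc3a, an LC3 gene, fell by 0.56 on the log2 scale (SE 0.12, limma adjusted p = 0.0121), and its second probe fell by 0.44 (adjusted p = 0.0237 in the limma fit of all probes).

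**Figure D4:**
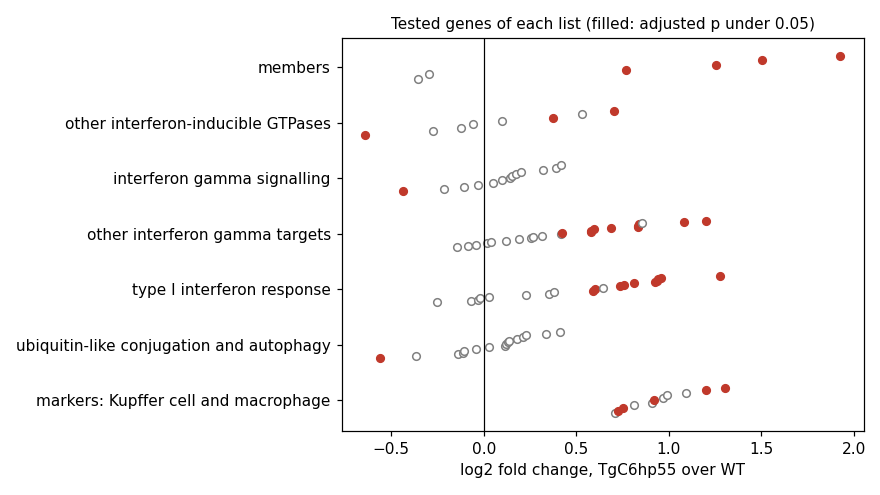
Log2 fold change, TgC6hp55 over WT (x axis), of each tested gene, by list (rows; members are the 8 interferon-inducible GTPases, 6 of them tested). Filled red points passed an adjusted p under 0.05 in limma and open points did not. The counts passed are 4 of 6 for the members, 3 of 8 for the other GTPases, 10 of 22 for the other interferon gamma targets and 10 of 19 for the type I interferon response. Of all features, 11.0% passed.

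Markers of other cells in the liver were read beside these values. All 11 tested markers of Kupffer cells and macrophages (15 listed) had a positive change, 5 of them called (Adgre1, C1qa, C1qb, Cd14 and Marco), with a median log2 fold change of 0.92. At an unadjusted p under 0.05 in limma all 11 were higher, a threshold that 24.4% of all features met in either direction. By adjusted p, 6.48% of all features were called higher. The call of C1qa held without any single liver, and the others were each lost without 4 to 6 of the 8 livers. Marco was detected on 1 WT array and Cd14 on 2, so both met the detection filter only through the TgC6hp55 livers. The summed signal of the 11 macrophage markers was 1940, 2105, 2839 and 1773 in TgC6hp55 replicates 1 to 4, and 564.5, 992.5, 1992 and 1073 in WT replicates 1 to 4. By this sum, which the brightest markers carry, WT replicate 3 lay within the TgC6hp55 range. By the mean of the 11 marker signals, each standardised over the 8 livers, it did not. That mean was 0.27 in WT replicate 3, and 0.51, 0.61, 1.25 and 0.34 in TgC6hp55 replicates 1 to 4. The Gbp2, Gbp3, Igtp and Irgm2 signals of WT replicate 3, 6.06, 6.50, 8.22 and 9.11, were below those of every TgC6hp55 liver. The same liver was the highest WT liver for both Gbp3 probes and for Igtp, and not for Gbp2 or Irgm2. Sinusoidal endothelial markers (10 tested of 11) were all positive too, with 2 called (Pecam1 and Fcgr2b) and all 10 higher at an unadjusted p under 0.05 in limma. They summed to 3161 to 3417 in TgC6hp55 livers and 2067 to 3044 in WT livers. T and NK cell markers (5 tested of 17) gave 0 calls (2 higher at an unadjusted p under 0.05 in limma) and sums of 187.3 to 283.1 in TgC6hp55 livers and 197.9 to 230.5 in WT livers, and Cd2, Cd4, Cd8a, Gzma, Gzmb and Ncr1 were detected on 0 arrays. The 2 higher were Cd3g, detected on 1 WT array, and Thy1, detected on 2, so both met the detection filter only through the TgC6hp55 livers. B cell markers (1 tested of 8), stellate cell markers (8 of 10) and neutrophil markers (4 of 8) gave 0 calls (1 higher, a stellate cell marker, at an unadjusted p under 0.05 in limma), with ranges that overlapped between the groups. The part of macrophages or endothelial cells in the changes of the GTPases was not tested.

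**Figure D5:**
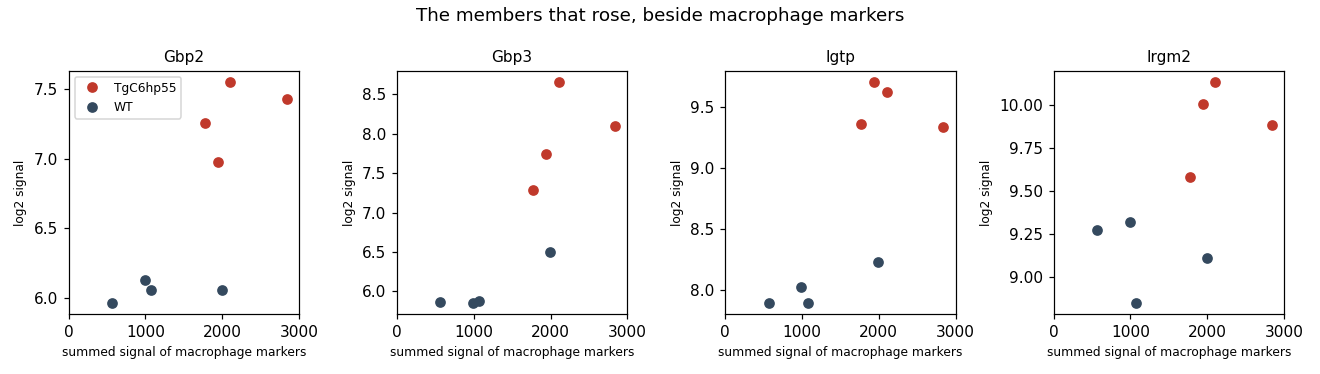
Log2 signal of the 4 members that rose (y axis, one panel each) against the summed normalized signal of 11 macrophage markers (x axis) in TgC6hp55 livers (red) and WT livers (dark blue). WT replicate 3, at 1992 on the x axis, lies among the TgC6hp55 livers in this sum and below all of them in each GTPase. In the mean of the standardised marker signals, not drawn here, it lies below all of them too. The y axes do not start at 0.

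The genes whose levels followed the members most closely were sought by the Pearson correlation, over the 8 livers, with the mean of the standardised signals of the 6 tested members. That mean joins the 4 members that rose with Irgm1 and Ifi47, whose changes were negative, so part of the group difference cancels in it. It ran from 0.087 to 1.08 in TgC6hp55 livers and from -0.77 to -0.16 in WT livers. The ranking is therefore not one by likeness to the members that rose. The livers share their group difference, so the correlation of deviations from the group means is given too, as a description. Dcun1d1, a factor in the conjugation of NEDD8 to cullins, came first with r = 0.974 (0.978 within groups), and Det1, part of a ubiquitin ligase complex, followed with 0.972 (0.942 within groups). Det1 was detected in the 4 TgC6hp55 livers and in 0 WT livers, so its WT values are at background and nothing is read from its r. Dcun1d1 did not pass the test (log2 fold change 0.33, limma adjusted p = 0.183). Next were the interferon-inducible genes Usp18, which removes ISG15 from proteins (r = 0.960, 0.908 within groups), Irf7 (0.959, 0.902 within groups) and Rsad2 (0.947, 0.876 within groups). Usp18, Irf7 and Rsad2 had log2 fold changes of 0.74, 0.60 and 0.76 (limma adjusted p = 0.0472, 0.0227 and 0.0408), calls that were lost without any of 6, 4 and 4 livers (up to 0.117, 0.0617 and 0.111). Rapgef5, an activator of Rap GTPases, was the last of the 6 (r = 0.942, 0.888 within groups) and was detected on 1 WT array. With 8 livers and 8540 features, high values of r arise easily.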

How the data were processed

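Liver mRNA of 4 TgC6hp55 and 4 WT mice was hybridised to Illumina Mouse Ref-8 v2.0 BeadChips. The authors processed the arrays in GenomeStudio 2011.1 and deposited, for each array, intensities without normalization, whose negative values show that background had been subtracted, along with a p-value of detection per probe. Their table of cubic spline normalized intensities served as an alternative. Columns were matched to samples by the sample titles.

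Background was corrected by normexp, with the detection p-values standing in for negative controls and an offset of 16, before quantile normalization on the log2 scale (neqc, limma 3.58.1, R 4.3.3). Probes with a detection p under 0.05 on at least 4 of 8 arrays were kept (11100 of 25697), and the probe with the highest mean stood for a gene, which left 7882 genes and 658 unnamed probes. Groups were compared with lmFit and eBayes, two-sided and without covariates. Probe names came from the platform annotation. The probes' own sequences were not used here, so signal shared between near-identical GTPase genes was not tested. The test was checked on simulated data.

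Members and gene lists were chosen with earlier results of these data known. The text names all members with every probe, the genes of each other list that passed (up to 4 by size of change), a fixed set of upstream genes whatever their result (1 gene of the rule is not reported here), and the 6 genes most correlated with the members. Promoters came from the RefSeq table of GRCm38.p6, which has entries for 6 of the 8 members. The files name no build, so their probes were given no coordinates. Same-numbered livers were not taken as pairs. The alternatives tried were no further background correction, median scaling, the authors' normalized values, array weights, a replicate block, robust estimation with a variance trend, no filter or a detection p under 0.01, every probe kept, SAM, an unpaired t-test, and each liver left out in turn. The study's methods name SAM for the arrays, and the unpaired t-test in their general section on statistics.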

Additional observations from a re-analysis of the deposited data

Results flagged for a closer look

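A liver far from the other 3 of its group, by Dixon's criterion, was sought in both groups for 36 probes named in the text, and 3 of 72 groups had one, where chance gives about 1 in 20. For Gbp3 (ILMN_1244513), WT replicate 3 read 6.50 and the other WT livers 5.85 to 5.88. For Ifit3, TgC6hp55 replicate 2 read 9.84 and the other TgC6hp55 livers 9.05 to 9.13. For Oasl2, WT replicate 1 read 5.24 and the other WT livers 5.68 to 5.74.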

How the results depend on the processing

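The calls of Gbp2, Gbp3 and Igtp held in all 19 alternatives, with log2 fold changes of 1.13 to 1.37, 1.69 to 2.16 and 1.40 to 1.57. Irgm2 was not called under median scaling (0.64) or SAM (0.74, under the fold of 1.7 it requires), and without single livers it ranged between 0.67 and 0.87. Irgm1 (-0.44 to -0.21) and Ifi47 (-0.53 to -0.24) were never called. No member changed direction. Members called higher stayed at 4 without any single liver. Other lists depended more on the setting. Other GTPases higher, 2 in the report, were 0 under median scaling, no filter, the replicate block, SAM and the unpaired test, 1 under the authors' spline values, a detection p under 0.01 and a variance trend, and 0 to 1 without single livers. Other GTPases lower (1) were 0 under median scaling, no filter, SAM and the unpaired test, and 0 to 1 without single livers. Signalling genes lower (1) were 0 under no background correction, median scaling, no filter, the block, SAM and the unpaired test, and 0 to 1 without single livers, as were those higher (0). Interferon gamma targets higher (10) were 3 under median scaling, 6 with no filter, 5 by SAM and by the unpaired test, and 7 to 9 without single livers. Type I genes higher (10) were 4 under median scaling and the unpaired test, 6 with no filter and by SAM, and 7 to 12 without single livers. Autophagy genes higher (0) were 1 under spline values, no filter, a detection p under 0.01 and a variance trend, 2 with array weights, and 0 to 1 without single livers, and those lower (1) were 0 under median scaling, SAM and the unpaired test. The cause was not tested. Over all features, calls numbered 938, 293 under median scaling, 342 by SAM, 590 by the unpaired t-test and 612 without WT replicate 2.

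Same-numbered livers deviated together with correlations of 0.158, 0.122, 0.011 and 0.112, and the labels name no shared litter or day, so they were not paired. The replicate block gave 912 calls, and 4 members higher as without it. Among genes named as calls, those of Gbp7, Gbp10, Irf2, Tap1, Psmb8 and Marco were lost under it. Tap2 and Fcgr4 were gained, which leaves the count of interferon gamma targets at 10. The macrophage markers Vsig4, C1qc and Lyz2 were gained too. Ifi47 had an adjusted p of 0.0839 under the block.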
